A study of Homo sapiens with 16 samples.

Results

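In vehicle-treated HEK293 cells, RAD21 and CTCF were compared interval by interval to see where cohesin and CTCF coincided and where they parted before any hyperosmotic stress. The comparison covers 73975 of the 74404 genomic intervals in a deposited CUT&Tag count table, namely those on chromosomes 1 to 22 and X outside the YAP1 gene. The 429 others lie on the mitochondrial genome (9), the Y chromosome (64), inside YAP1 (12) or on unplaced or unlocalised contigs (344). HEK293 is a human embryonic kidney cell line, and the labels give all libraries the eGFP-YAP genotype. The series' design text adds that the cells were serum-starved for 1 h. In CUT&Tag, an antibody guides a transposase to the chromatin around its target, and the fragments it tags are sequenced. Each target had 2 vehicle libraries, and the labels do not say whether they came from separate cultures, so p-values measure only the spread between these libraries. Libraries made with a control antibody were not analysed here, and 1 cell line was studied.

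CTCF is a zinc-finger protein that binds a long DNA motif. Cohesin is a ring-shaped complex of SMC1A, SMC3, RAD21 and a STAG subunit that is loaded onto chromatin, extrudes DNA loops and is held up where CTCF is bound. Cohesin is also known at active promoters and enhancers, where its loader NIPBL is found.

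The labelled cell line was checked by H3K27ac, a mark of active promoters and enhancers, in its 2 vehicle libraries. All 6 kidney and HEK293 genes chosen as markers (such as PAX2, GATA3 and HOXA9) had promoter intervals, with 18.42 to 296.5 CPM (counts per 1e6 counts) in each library. Of 10 markers of liver, blood, heart and epidermis, 9 had no interval at their promoters, and TNNT2 had 7.06 and 7.557 CPM. Counts in the compared intervals were 3.62 M and 2.48 M for CTCF and 1.34 M and 0.602 M for RAD21 (M, 1e6 counts). In RAD21 replicate 2, 21.71% of the intervals held no count, against 5.49% to 8.80% in the other 3 libraries. A group of 32 intervals each held more than 0.1% of some library. Together they took 8.14% and 11.76% of CTCF counts and 14.43% and 23.34% of RAD21 counts, and 1 interval in LINC00486 alone took 11.59% in RAD21 replicate 2.

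The sites below show the sequence on which the comparison turns. Each is 30 bases of hg38 read 5′ to 3′ along the strand given, with the 14 bases that best match the CTCF consensus in capitals. The first pair come from intervals high for both proteins, the next 4 from intervals high for CTCF and low for RAD21, and the last pair from tandem arrays. Across all 73975 intervals, 18.44% held the consensus with at most 1 mismatch on either strand, and 34.0% reached to 1 kb or less from a start site in the annotation (called promoters here).
near AKAP1, chr17:57131138-57131167, plus strand, 0 mismatches: gtcttagaCCACTAGATGGCGCcacagcac
STAG1 promoter, chr3:136752339-136752368, minus strand, 0 mismatches: ggaaaatgCCACCAGATGGCGGgttaggat
near FAM20C, chr7:262927-262956, plus strand, 0 mismatches: agtgccaaCCAGCAGGGGGCACaggacaga
near DMRT3, chr9:998581-998610, minus strand, 1 mismatch: tccactagCCTCCAGGGGGCAGcagagccg
CEACAM6 intron, chr19:41753363-41753392, plus strand, 1 mismatch: tcgctgcgCCGCCAGGGGGCGCcatcacaa
CTCFL promoter, chr20:57526208-57526237, plus strand, 1 mismatch: aggagagcCCTGCAGGGGGCGCtgggatac
DXZ4 repeat, chrX:115732265-115732294, plus strand, 2 mismatches: ttttttccTCAGCAAAGGGCGGagggagtg
chromosome 19 array, chr19:50128632-50128661, minus strand, 1 mismatch: ccttcctcCCTCCAGGGGGCGCcatggaac
The first pair were chosen for an exact match, and the next 4 were printed because they held a match. These examples therefore do not show how often a match goes with either pattern.

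RAD21 and CTCF parted mainly by the kind of interval. Relative to CTCF, RAD21 was low at CTCF consensus sites, in promoters and outside them, and high at acetylated intervals without the consensus. The 2 antibodies have no common scale, so above and below mean relative to the balance of both profiles that TMM scaling sets over the tested intervals. A median of -0.02 on the log2 scale over all tested intervals shows where that zero lies. Of the 73975 intervals, 40407 (54.62%) passed the filter on low counts. edgeR's quasi-likelihood test (two-sided, Benjamini-Hochberg adjusted p under 0.05) called 32.2% of them in either direction. RAD21 lay above CTCF at 5852 intervals (14.5%) and below it at 7142 (17.7%). Of the 5852, 1754 had no CTCF library at the filter's level of 5.24 CPM, and of the 7142, 1252 had no RAD21 library there, so these passed the filter only through the target in which they were high. Without CTCF replicate 1 the counts were 1171 and 3121, without CTCF replicate 2 they were 1132 and 3488, and without RAD21 replicate 1 they were 3919 above and 7099 below. Scaling to the weakest 25% of intervals moved every log2 value by about -0.60 and gave 1713 above and 13361 below, so 11.36% of calls lay above instead of 45.04%. That share was 55.57% with a mean of at least 50 counts (2516 above, 2012 below), 27.10% in 1 fit of 16 libraries, 27.05% with DESeq2 and 24.31% with no count filter.

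The CTCF consensus marked the side on which RAD21 was low relative to CTCF, while RAD21's own level differed little. Outside promoters the median RAD21 level was 10.67 CPM with the consensus and 10.63 CPM without it, and in promoters 18.46 and 18.99 CPM. CTCF medians were 19.33 and 9.136 CPM outside promoters, and 29.83 and 12.59 CPM in them. Over the 11958 tested intervals with the consensus the median CPM was 21.54 for CTCF and 12.32 for RAD21, and the median log2 of RAD21 over CTCF was -0.91. Among them 207 were called above and 4683 below. The 28449 intervals without it had medians of 10.81 CPM for CTCF and 14.27 CPM for RAD21, with a log2 median of 0.43 that turned to -0.18 under scaling to the weakest 25%, and 5645 above and 2459 below. The consensus was present in 65.57% of the intervals where RAD21 was below, in 25.78% of those not called and in 3.54% of those where RAD21 was above. The difference between the class medians, -1.33, was -1.25 to -1.233 in the 4 pairings of single libraries on a log2(CPM + 1) scale. The pairings reuse the same 2 libraries per target, so this range is not 4 independent estimates.

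The closer the best match was to the consensus, the lower RAD21 lay relative to CTCF. The 3301 intervals with no mismatch had a log2 median of -1.19, with 3 called above and 1779 below. One mismatch gave -0.79 over 8657 intervals, 2 mismatches 0.09 over 13677, 3 mismatches 0.69 over 11965 and 4 or more 0.90 over 2807. The median CTCF level fell along the same order, from 26.62 to 19.59, 14.27, 9.165 and 6.24 CPM, while the median RAD21 level was 12.15, 12.36, 15.62, 14.31 and 9.807 CPM. Intervals with several matches parted further, with a median of -0.89 for 1 match (n = 11344), -1.17 for 2 (n = 534) and -2.43 for 3 or more (n = 80), of which 71 were called below and 0 above.

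**Figure D1:**
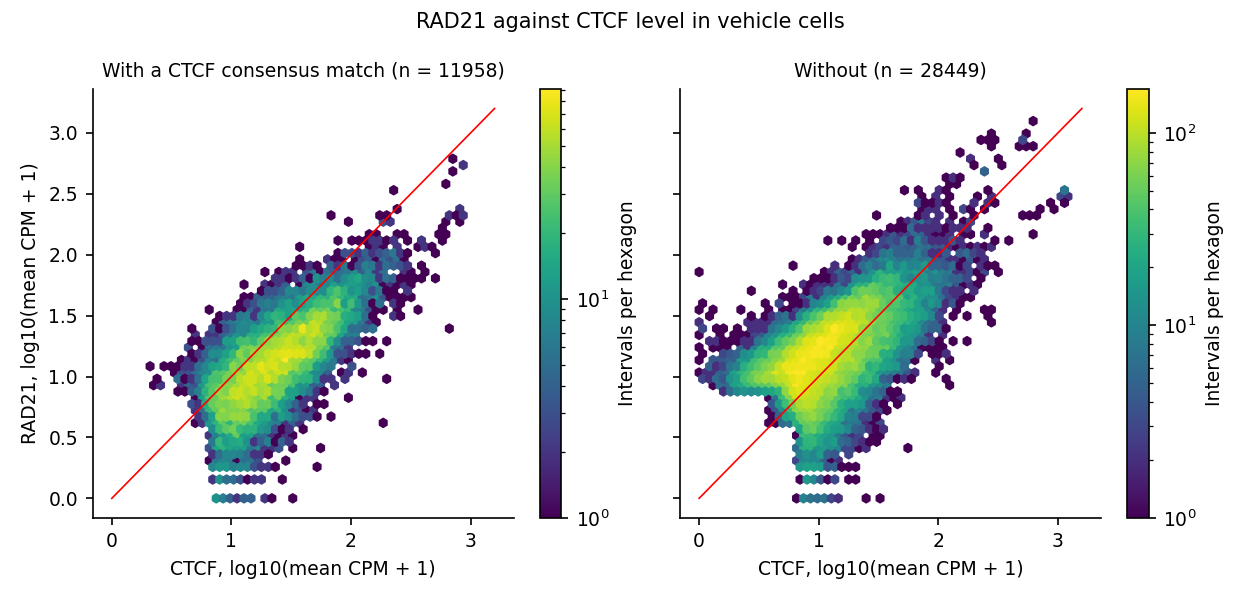
Mean RAD21 against mean CTCF level (log10 of CPM + 1, 2 libraries each) for the 11958 tested intervals with the CTCF consensus (left) and the 28449 without it (right); colour gives the number of intervals per hexagon on a log scale and the red line marks equal CPM. Most intervals with the consensus lie below the line, and most without it lie above; the empty lower left corner is the filter on low counts.

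Promoters as a whole stood on the other side, but not at like H3K27ac. The 17933 promoter intervals had a log2 median of 0.46 (which became -0.14 under scaling to the weakest 25%), with 3524 called above and 2300 below, and the 22474 other intervals had -0.44, with 2328 above and 4842 below. The balance of promoter calls turned to 1824 above and 2521 below with GC-corrected offsets, to 719 and 4074 under scaling to the weakest 25%, and to 2225 and 2297 without RAD21 replicate 1, counted over those of the 17933 that each fit tested. Within each of 4 equal classes by H3K27ac CPM per kb, from lowest to highest, promoters lay lower than other intervals: -0.94 against -0.77, -0.72 against -0.52, 0.49 against 0.75 and 0.66 against 0.82. The difference of 0.90 between the medians over all promoters and all other intervals was 0.742 to 0.831 in the 4 pairings of single libraries. When position was crossed with the consensus, promoters with it had -0.82 (n = 3217) and other intervals with it -0.94 (n = 8741). Promoters without the consensus had 0.62 (n = 14716) and the remaining intervals 0.04 (n = 13733), and under scaling to the weakest 25% these were 0.01 and -0.56. The latter median was also negative without RAD21 replicate 1 (-0.13) or 2 (-0.10) and without intervals above 0.1% of a library (-0.02). Intervals within 2 kb downstream of a gene end and outside promoters lay lower than the other non-promoter intervals, at -0.82 (n = 930) against -0.42 (n = 21544). That gap was also seen without the consensus, at -0.47 (n = 501) against 0.06 (n = 13232).

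The same division was visible in each library as a share of its counts. Promoters held 45.02% and 43.79% of CTCF counts and 52.73% and 49.53% of RAD21 counts, and both RAD21 libraries lay above both CTCF libraries (difference 6.73 percentage points). Consensus intervals held 38.86% and 37.41% of CTCF counts against 20.65% and 18.12% of RAD21 counts, again without overlap (difference -18.75 percentage points). Intervals that were neither took 29.89% and 31.90% for CTCF and 34.48% and 39.19% for RAD21. An exact two-sided permutation test of 2 against 2 libraries gave p = 0.33 for each, which is the smallest it can give. The GFP antibody libraries, which read eGFP-YAP in the same cells, had 12.12% and 11.75% of their counts in consensus intervals, below both RAD21 libraries. This comparator was chosen after the values were seen.

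**Figure D2:**
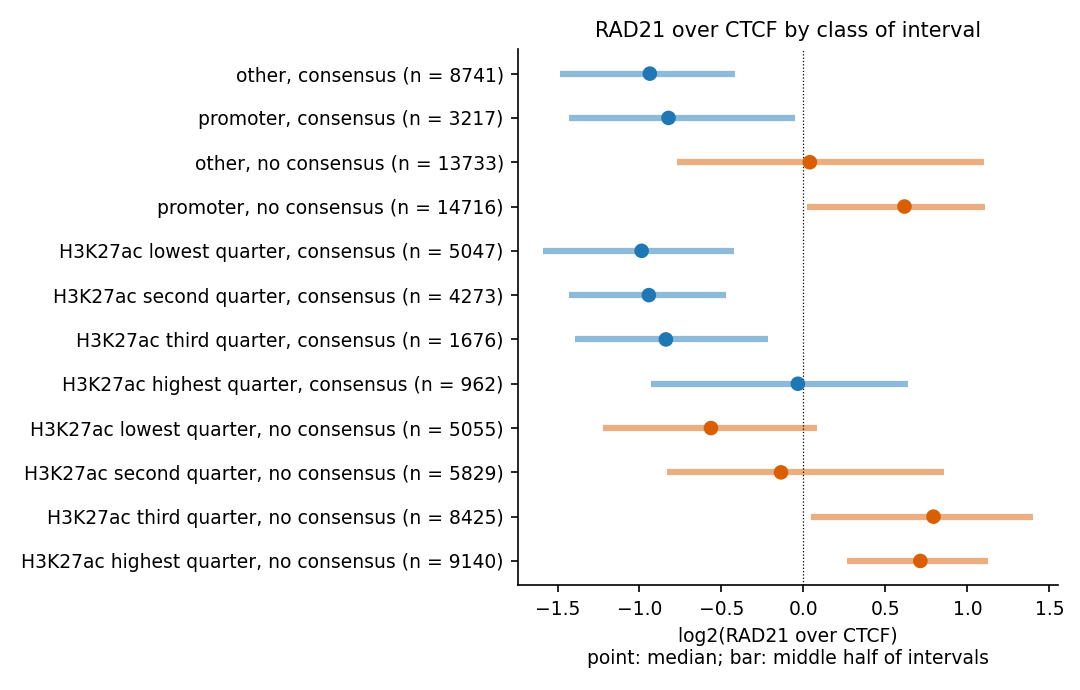
Log2 of RAD21 over CTCF from edgeR by class of tested interval, with points at the median and bars over the middle 50% of intervals; blue classes hold the CTCF consensus, orange classes do not, and the H3K27ac classes are 4 equal parts of all tested intervals by H3K27ac CPM per kb. Consensus classes lie between -0.99 and -0.82 except in the highest H3K27ac class (-0.03), and classes without it go from -0.56 in the lowest H3K27ac class to 0.71 in the highest.

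RAD21 relative to CTCF was higher where H3K27ac was higher. When the tested intervals were divided into 4 equal classes by H3K27ac CPM per kb, the log2 medians from lowest to highest were -0.79, -0.56, 0.595 and 0.665, with 2.53%, 7.76%, 20.75% and 26.89% called above. The difference of 1.46 between the outer classes was 1.335 to 1.387 in the 4 pairings of single libraries. Intervals with the consensus stayed at -0.99, -0.94 and -0.84 over the first 3 classes and reached -0.03 in the highest (n = 962), where 126 were above and 311 below. Without the consensus the medians were -0.56, -0.14, 0.79 and 0.71. GC content and width moved with H3K27ac: from the lowest to the highest class, median GC went from 46.4% to 64.0% and median width from 449 to 1218 bases. With GC-corrected offsets the promoter difference fell to 0.40 and the H3K27ac difference to 0.86, while the consensus difference was -1.081. Within each of 4 equal classes of GC content the consensus class lay lower than the rest, at -0.82 against -0.23 in the lowest and -0.75 against 0.65 in the highest.

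RAD21 was higher where CTCF was higher, and so were the other profiles. When the tested intervals, without the 32 dominant ones, were ranked by CTCF replicate 1 and divided into 10 equal classes, mean CTCF in replicate 2, which the ranking did not use, rose from 4.39 CPM in the weakest class to 87.0 CPM in the strongest. Over the same ranking RAD21 went from 10.15 to 51.0 CPM in replicate 1 and from 12.04 to 51.92 CPM in replicate 2. The weakest class averaged 2.841 CPM in CTCF replicate 1, under the filter's 5.24 CPM, so its intervals passed largely through RAD21, and no ratio of the outer classes is compared between targets. From the second class upward RAD21 went from 9.785 to 51.0 and from 10.46 to 51.92 CPM, eGFP-YAP from 9.348 to 42.56 and from 9.141 to 41.78 CPM, and H3K27ac from 12.63 to 32.63 and from 12.65 to 32.63 CPM. The share of intervals with the consensus went from 3.84% to 58.15% and that of promoters from 33.01% to 52.23%.

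**Figure D3:**
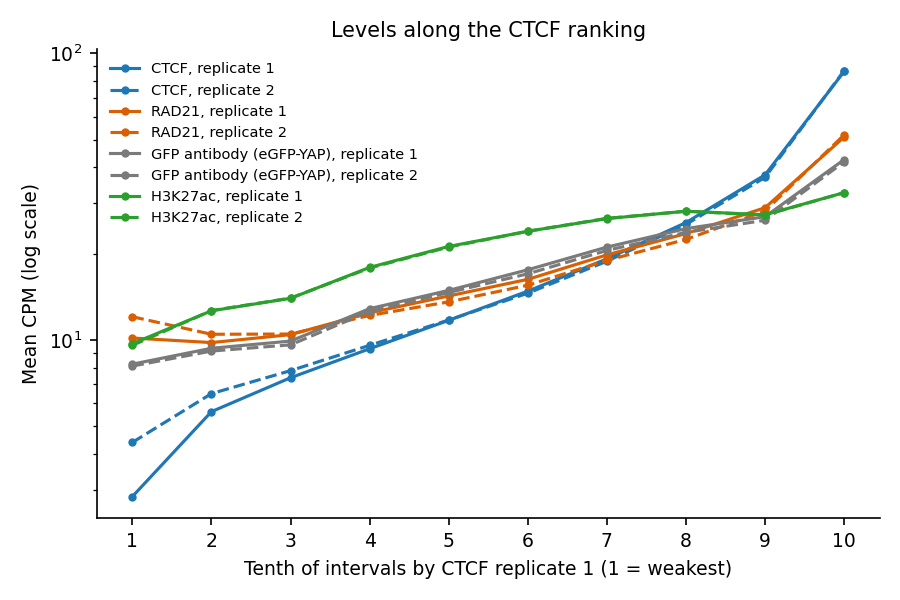
Mean CPM (log axis) of each vehicle library over the tested intervals in 10 equal classes by CTCF replicate 1, with solid lines for replicate 1 and dashed lines for replicate 2. CTCF replicate 2 climbs from 4.39 to 87.0 CPM, RAD21 replicate 1 from 10.15 to 51.0 CPM and replicate 1 of the GFP antibody from 8.229 to 42.56 CPM; the weakest class passed the filter largely through RAD21.

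The strongest intervals of the 2 proteins overlapped in part. Of each library's 5000 strongest intervals by count per kb, CTCF and RAD21 shared 43.46% and 43.54% for RAD21 replicate 1 and 35.20% and 35.78% for replicate 2 (mean 39.49% ± 4.63, SD, 4 library pairs). The RAD21 libraries shared 49.78% and the CTCF libraries 83.88%. RAD21 shared 27.28% to 32.98% with the eGFP-YAP libraries, and CTCF shared 14.96% to 15.78% with them. The order of RAD21's partners depended on the ranking: among the 1000 strongest, RAD21 shared 44.3% to 50.3% with eGFP-YAP and 29.3% to 39.6% with CTCF, and among the 5000 strongest by count per interval 53.84% to 60.2% and 44.8% to 48.36%. Across 73943 intervals, Pearson's r of log2(CPM + 1) was 0.66 to 0.75 between CTCF and RAD21 libraries, 0.73 between the RAD21 libraries and 0.93 between the CTCF libraries. These correlations are across intervals that share width, GC content and accessibility to the enzyme, and RAD21 with eGFP-YAP gave 0.615 to 0.702. Over the 1694 intervals where each target averaged 50 counts or more, CTCF and RAD21 gave 0.373 to 0.465, RAD21 and eGFP-YAP 0.443 to 0.509 and CTCF and eGFP-YAP -0.033 to -0.004. The sets of 5000 strongest intervals of all 4 libraries had 1293 in common, and 43.7% of them held the consensus. In 1883 intervals that were among the 5000 strongest in both CTCF libraries and in neither RAD21 library the consensus share was 72.49%, and in 1011 with the reverse pattern it was 9.59%.

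**Figure D4:**
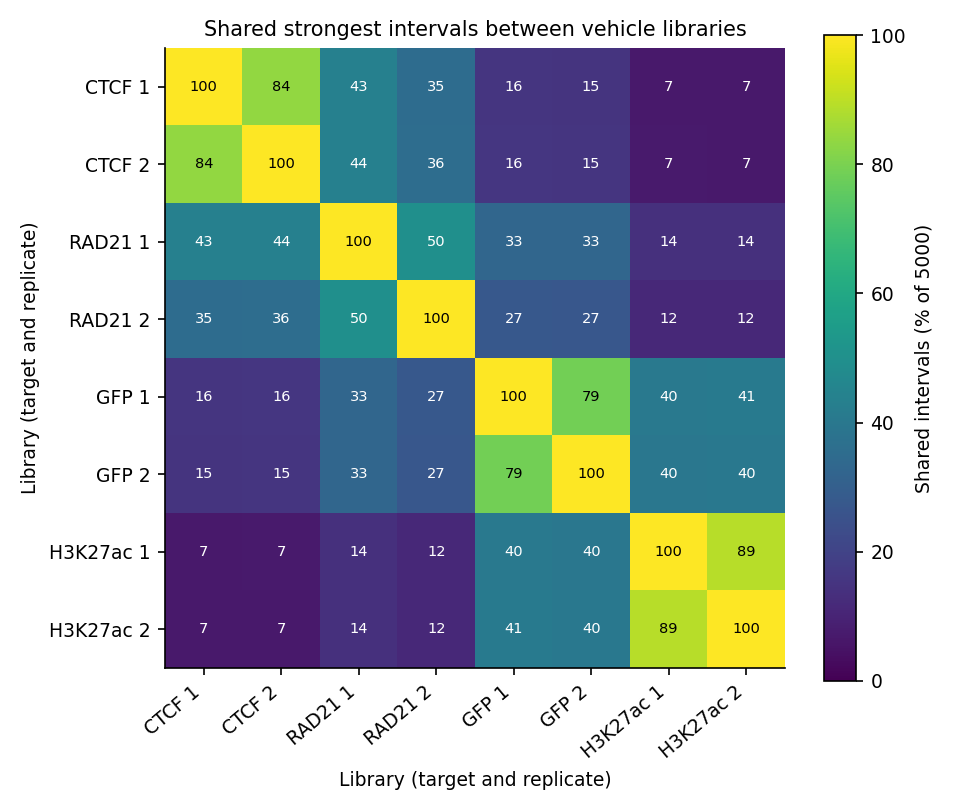
Percent of the 5000 strongest intervals (count per kb) shared by each pair of the 8 vehicle libraries; GFP is the antibody against eGFP-YAP. CTCF and RAD21 share 35.20% to 43.54%, and the RAD21 libraries share 49.78% with each other.

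Relative to the GFP antibody, RAD21 was higher with the consensus than without it, in promoters and outside them. After centring each log2 ratio of summed counts (1 added) on its median over the tested intervals, RAD21 over eGFP-YAP had medians of 0.98 and 0.52 at non-promoter intervals with and without the consensus, and -0.06 and -1.10 at promoters with and without it. CTCF over eGFP-YAP had 1.65, 0.47, 0.77 and -2.09 in the same classes. These ratios were added after the values were seen and carry no test.

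Of the 12 named intervals furthest on the CTCF side, most carried the consensus. The naming rule took the 12 lowest log2 values among 5515 eligible intervals, of which 10 held the consensus and 0 lay at promoters. Over all intervals called below, 65.57% held the consensus and 32.2% were promoters, against 29.59% and 44.38% of all tested. Of the 12, the strongest by CTCF was an intergenic interval at chr9:998438-999142, 8601 bases from DMRT3, a developmental transcription factor gene and the nearest coding gene. It had 612.4 and 679.6 CPM for CTCF and 14.04 and 32.48 CPM for RAD21 (log2 -5.00, SE 0.32, edgeR adjusted p = 8e-07). An intergenic interval near FAM20C, a secretory-pathway kinase gene, at chr7:262865-263838 had 170.9 and 206.6 CPM against 6.239 and 0.0 CPM. In an intron of CEACAM6, a cell adhesion gene, at chr19:41753117-41753649, CTCF had 23.22 and 36.92 CPM and RAD21 no count in either library, so CTCF was at least 7.45-fold higher against a floor of 3 counts per library. The NBDY intron interval at chrX:56803142-56803696, without a consensus, also had no RAD21 count against 33.83 and 32.09 CPM for CTCF, at least 8.17-fold. In an intron of ASB4 at chr7:95511656-95512190 the RAD21 libraries had 0 and 2 counts and CTCF 92 and 65, a ratio of 24.6 with an exact 95% interval of 6.70 to 205. Intervals and floors cover counting error only, since PCR copies are not independent molecules. CEACAM6, NBDY and ASB4 passed the filter of 5.24 CPM only through CTCF and were picked as extremes. Their ratios are therefore descriptions and no separate support. A pair of the 12, at chr15:21730507-21731948 and chr15:22173088-22174544, hold the same 30-base site, so reads of these near-identical copies may have been split between them.

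The intervals furthest on the other side had few CTCF counts and no consensus. Of 3436 eligible, the 12 highest held 0 consensus sites, and 1 lay at a promoter. Over all intervals called above, 3.54% held the consensus and 60.22% were promoters, against 29.59% and 44.38% of all tested. Among the 12, the lowest adjusted p belonged to an intergenic interval at chr15:70099415-70099924, 1239 bases from a start site of TLE3, a transcriptional corepressor. RAD21 had 106.1 and 63.06 CPM there and CTCF 4.588 and 5.714 CPM (log2 4.12, SE 0.34, edgeR adjusted p = 2.6e-06), and eGFP-YAP reached 54.7 CPM. In an intron of SCML4, a Polycomb-group-related gene, at chr6:107782958-107783432, RAD21 had 22.62 and 42.04 CPM (29 and 22 counts) and CTCF no count, at least 29.7-fold. In an intron of CASZ1, a zinc-finger transcription factor gene, at chr1:10744350-10744776, RAD21 had 23 and 32 counts and CTCF 1 and 0, a ratio of 176 with an exact 95% interval of 30.2 to 7060. RAD21 replicate 2 was above replicate 1 in most of these. At the interval in an intron near TPD52 it had 122.3 CPM against 16.38 CPM, and the adjusted p was 0.041 with TMM and 0.06 with DESeq2's size factors. Where neither CTCF library reached 5.24 CPM, as at SCML4 and CASZ1, the interval passed the filter only through RAD21. Such ratios, from intervals picked as extremes, are descriptions and no separate support.

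Among intervals of at most 0.1% of a library, most of those highest in both proteins lay near chromosome ends, in arrays or in a pseudogene. The 8 with the highest smaller mean per kb lay at or near chromosome ends (10, 18 and X), on the short arm of chromosome 21, in a mitochondrial pseudogene on chromosome 5, in DXZ4 and near FOXF2, and 0 held the consensus (29.59% of all tested). Counts in such copies are uncertain, and several were high for the GFP antibody too, with 1300 CPM in the MTND5P11 pseudogene and 722 CPM near FOXF2. The log2 values of the 8 ran from -1.9 to 1.86. In the main fit all were called except the one near the end of X (0.39, edgeR adjusted p = 0.19). Scaling to the weakest 25% gave 0.15, 0.25 and 0.26 on chromosomes 10, 18 and 21 (adjusted p = 0.66, 0.36 and 0.31). Among intervals with an exact consensus, an addition made after the values were seen, the strongest in both lay 14762 bases from AKAP1, a mitochondrial scaffold gene, at chr17:57130895-57132699. It had 235.4 and 214.5 CPM for CTCF and 281.5 and 412.7 CPM for RAD21 (log2 0.60, SE 0.22, adjusted p = 0.043). Without RAD21 replicate 2 it was 0.18 (adjusted p = 0.48), and under scaling to the weakest 25% it was -0.03. At the ATP8B3 promoter, a phospholipid flippase gene, CTCF had 160.9 and 158.7 CPM and RAD21 143.5 and 114.7 CPM, a difference that did not pass the test (log2 -0.28, adjusted p = 0.26). It was called below under other settings, at -0.70 with GC-corrected offsets (adjusted p = 0.014) and -0.89 under scaling to the weakest 25%. At the LPIN3 promoter, a phosphatidate phosphatase gene, CTCF had 163.4 and 167.9 CPM and RAD21 118.5 and 131.8 CPM (log2 -0.42, adjusted p = 0.094). This one too was called below elsewhere, at -0.67 with GC-corrected offsets (adjusted p = 0.017), -0.63 with DESeq2 (adjusted p = 0.022) and -0.62 without RAD21 replicate 2 (adjusted p = 0.013). The other 5 (RHOF, MATN1, STAG1, DBN1, SLC17A7) were called below, at -1.79 to -0.62.

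Tandem arrays on chromosomes X and 19 lay on the CTCF side. They were singled out after their values were seen. DXZ4, the X-linked macrosatellite between DANT2 and DANT1 that forms a boundary on the inactive X chromosome, had 36 intervals within chrX:115694880-115969148. Their summed level was 21450 and 27600 CPM for CTCF and 5809 and 8645 CPM for RAD21, a ratio of 3.39, and 27 of 32 tested intervals were called below and 0 above, against 17.7% and 14.5% of all tested. The 14 bases that best match the consensus were the same in 18 intervals, with the 30 bases shown above identical in all 18. FIRRE, an X-linked RNA gene that escapes inactivation, held 17 intervals with 1150 and 1178 CPM for CTCF and 192.6 and 156.7 CPM for RAD21, a ratio of 6.67, and 13 of 15 tested were below. An array in ENSG00000287001 on chromosome 19 (chr19:50095898-50148302) held 15 intervals with 6895 and 8362 CPM for CTCF and 1858 and 2503 CPM for RAD21, and 14 of 15 were below. It repeated 1 core match in 10 intervals. The consensus with at most 1 mismatch was in 1 interval of DXZ4, 1 of FIRRE and 10 of the chromosome 19 array. Copies of a repeat share reads, so these sums are read as arrays and not as separate sites, and each sum is over intervals called by the authors, not over the whole array.

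Promoters of the cohesin and CTCF machinery were called more often below than above. Of 27 promoter intervals of the 16 genes, 21 were tested. Of these, 1 was above (4.76%, against 14.5% of all tested) and 8 below (38.1%, against 17.7%). Their log2 median of 0.09 (-0.02 over all tested) became -0.52 under scaling to the weakest 25% and -0.28 with GC-corrected offsets. It was -0.75 and -0.04 without RAD21 replicate 1 and 2, and -0.17 over only those with a mean of at least 50 counts. At the CTCFL promoter, a germline paralogue of CTCF, CTCF had 133.6 and 131.0 CPM and RAD21 21.06 and 7.643 CPM (log2 -2.98, SE 0.29, adjusted p = 8e-06). The CTCF gene's own promoter had 148.2 and 140.2 CPM for CTCF and 84.23 and 87.90 CPM for RAD21 (log2 -0.75, adjusted p = 0.0087). At ESCO1, a cohesin acetyltransferase gene, the CTCF libraries had 129.6 and 113.0 CPM and the RAD21 libraries 34.31 and 34.40 CPM (log2 -1.82). STAG1, which encodes a cohesin subunit, had the highest level of both proteins in the list, 192.4 and 187.7 CPM for CTCF and 128.7 and 116.6 CPM for RAD21 (log2 -0.62, adjusted p = 0.021). Without CTCF replicate 1 or 2 the STAG1 call was lost (adjusted p = 0.21 and 0.15), and with a mean of at least 50 counts its value was 0.03. WAPL, the cohesin release factor, was the exception in the other direction, with 24.96 and 30.57 CPM for RAD21 against 12.62 and 10.99 CPM for CTCF (log2 1.18, SE 0.38, adjusted p = 0.026). It was not called with GC-corrected offsets (0.79, adjusted p = 0.13), with DESeq2 (0.99, adjusted p = 0.12) or under scaling to the weakest 25% (0.58, adjusted p = 0.25). Its call was lost without CTCF replicate 1, CTCF replicate 2 or RAD21 replicate 2 (adjusted p = 0.21, 0.3 and 0.068). An interval in the coding sequence of MAU2, which encodes the loader's partner subunit, met the promoter rule. It had 3.3 CPM of H3K27ac, against a list median of 67.12 CPM. This interval was below (33.26 and 46.59 CPM for CTCF, 3.899 and 15.29 CPM for RAD21, log2 -2.39). SMC3 (0.09), SMC1A (0.66) and NIPBL (-0.82) did not pass the test.

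**Figure D5:**
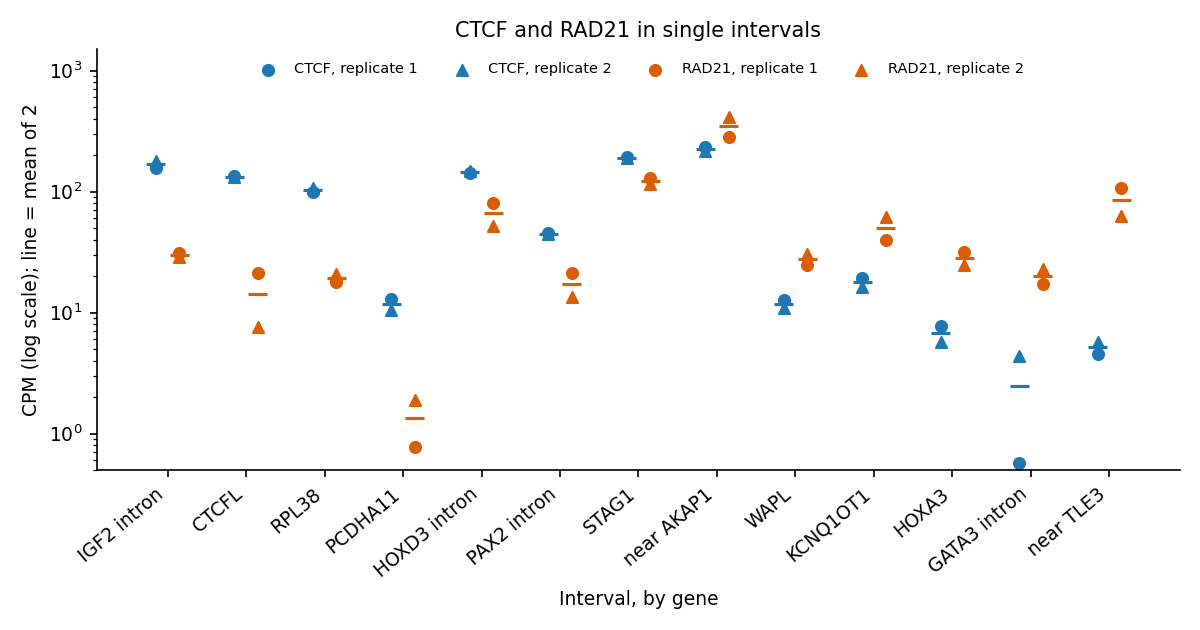
CPM (log axis) of CTCF (blue) and RAD21 (orange) in 13 intervals named in the text, with circles for replicate 1, triangles for replicate 2 and lines at the mean of 2. CTCF lies above RAD21 from the IGF2 intron to STAG1, and RAD21 above CTCF from the AKAP1 interval to that near TLE3.

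Intervals at imprinted genes fell on both sides. Of 33 tested intervals in or within 10 kb of 15 imprinted genes, 4 were above (12.12%, near the 14.5% of all tested) and 11 below (33.33%, against 17.7%). Their median of 0.02 turned to -0.58 under scaling to the weakest 25% and -0.16 with GC-corrected offsets. It was -0.14 without RAD21 replicate 2 and -0.05 without intervals above 0.1% of a library. Over only those with a mean of at least 50 counts, a different set, the median was -1.33. In an IGF2 intron at chr11:2151385-2152423, in the gene for a fetal growth factor, CTCF had 156.8 and 179.8 CPM and RAD21 31.20 and 28.66 CPM (log2 -2.47, SE 0.23, adjusted p = 6.1e-06). An interval annotated to an intron of H19, the non-coding RNA gene that shares a control region with IGF2, had 63.94 and 65.94 CPM against 17.16 and 15.29 CPM (log2 -1.97, adjusted p = 0.00022). MEG3, an imprinted RNA gene on chromosome 14, had 45.88 and 45.72 CPM against 10.92 and 5.733 CPM (log2 -2.29). KCNQ1OT1, an antisense RNA whose start lies in a control region, had more RAD21, 39.77 and 61.15 CPM against 19.50 and 16.26 CPM (log2 1.41, SE 0.31, adjusted p = 0.004); without CTCF replicate 2 its adjusted p was 0.086. An interval in the coding sequence of CDKN1C, a cell cycle inhibitor gene, passed the filter only through RAD21. It was above at 8.579 and 11.47 CPM against 1.720 and 2.198 CPM (log2 2.29). That call was lost without any 1 of the 4 libraries (adjusted p = 0.39 and 0.35 without CTCF replicates 1 and 2, both 0.12 without RAD21 replicates 1 and 2).

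Kidney developmental transcription factor genes were called above more often than below, an order that scaling to the weakest 25% turned (4 above, 5 below). Of 35 tested intervals at 13 genes, 14 were above and 1 below, against 14.5% and 17.7% of all tested, and the log2 median was 1.19 (0.57 under that scaling). In a GATA3 intron at chr10:8046320-8046868 RAD21 had 17.16 and 22.93 CPM and CTCF 0.5734 and 4.396 CPM (log2 3.10, SE 0.71, adjusted p = 0.0047). Neither CTCF library reached the filter's 5.24 CPM there, so this interval passed only through RAD21. Without CTCF replicate 1 its adjusted p was 0.087. The SIX2 promoter had 40.55 and 22.93 CPM against 11.76 and 5.714 CPM (log2 1.89). PAX2 held both patterns. Its intron at chr10:100743613-100744234, with a consensus site of 1 mismatch, had 45.59 and 44.40 CPM for CTCF against 21.06 and 13.38 CPM for RAD21 (log2 -1.28, adjusted p = 0.007), and this call was lost without CTCF replicate 1 (adjusted p = 0.064). Another PAX2 intron interval had 10.92 and 11.47 CPM for RAD21 against 1.720 and 1.758 CPM (log2 2.63), and it too passed the filter only through RAD21. H3K27ac was high in the list, with a median of 26.17 CPM against 5.112 CPM over all tested intervals; its part in the difference was not tested.

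The protocadherin genes, whose promoters are chosen singly in neurons through CTCF and cohesin, lay on the CTCF side. Of 11 tested intervals 0 were above and 6 below (54.55%, against 17.7% of all tested), with a median of -1.59. With GC-corrected offsets 3 were below. The filter that asks for an average of 50 counts gave 1, but it tested only 9359 of the 40407 intervals. A lower number there therefore need not mean lost calls. H3K27ac had a median of 0.4712 CPM there, against 5.112 CPM over all tested intervals. The interval highest in both proteins, annotated to PCDHGA1 and holding an exact consensus, had 45.59 and 32.53 CPM for CTCF and 10.14 and 19.11 CPM for RAD21 (log2 -1.59, adjusted p = 0.0062). It was lost without CTCF replicate 1 or RAD21 replicate 1 (adjusted p = 0.12 and 0.051). PCDHA11 had 12.90 and 10.55 CPM against 0.7799 and 1.911 CPM, a ratio of 10.8 from summed counts (exact 95% interval 2.88 to 91.0), and its call was lost without either CTCF library or RAD21 replicate 1. The PCDHA11 interval passed the filter only through CTCF.

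The HOX clusters, which order the body axis, held both patterns. Above and below numbered 6 and 2 of 19 tested in HOXA, 3 and 4 of 24 in HOXB, 6 and 2 of 20 in HOXC and 0 and 1 of 10 in HOXD, against 14.5% above and 17.7% below of all tested. HOXB (12.5% and 16.67%) was near those shares. Under scaling to the weakest 25% the counts were 3 and 3, 0 and 6, 2 and 3, and 0 and 2. Over only the intervals averaging 50 counts or more, a smaller set, HOXD had 2 above and 0 below. The cluster medians were 0.48, 0.38, 0.81 and 0.24, and all but that of HOXC turned negative under scaling to the weakest 25%. The HOXB median was also negative over that smaller set, and the HOXD median with GC-corrected offsets. At HOXA3 RAD21 had 31.98 and 24.84 CPM against 7.741 and 5.714 CPM for CTCF (log2 2.08, SE 0.42, adjusted p = 0.002). An intergenic interval near HOXA7 at chr7:27160170-27161772, with an exact consensus, had 129.9 and 109.0 CPM for CTCF and 66.29 and 66.88 CPM for RAD21 (log2 -0.85, adjusted p = 0.0065). It was the highest of the cluster in both proteins, and without CTCF replicate 1 its adjusted p was 0.14. The HOXD3 intron interval had 142.5 and 149.0 CPM for CTCF and 80.33 and 51.59 CPM for RAD21 (log2 -1.07, adjusted p = 0.0021). Its value was -0.42 with a mean of at least 50 counts, and the call was lost (adjusted p = 0.1).

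Among housekeeping lists, ribosomal protein promoters were called below in the main fit at a share near that of all tested intervals. Histone gene promoters were called more often above than below there. Of 93 tested ribosomal protein intervals 9 were above (9.68%) and 18 below (19.35%). Their median was 0.37, but -0.23 under scaling to the weakest 25% and -0.02 over only those with a mean of at least 50 counts. Of 38 histone gene intervals 8 were above (21.05%) and 3 below (7.89%), with a median of 0.78. All tested intervals had 14.5% and 17.7%, and under scaling to the weakest 25% the histone genes had 0 above and 4 below (median 0.18). At RPL38, which encodes a ribosomal protein, CTCF had 99.49 and 107.7 CPM and RAD21 17.94 and 21.02 CPM (log2 -2.45, SE 0.26, adjusted p = 1.7e-05), with a consensus site of 1 mismatch. RPL10 had similar levels, 75.41 and 62.86 CPM for CTCF and 73.31 and 61.15 CPM for RAD21 (log2 -0.02, adjusted p = 0.96, but 0.63 with a mean of at least 50 counts). Among histone genes H2BC26 lay below, with 67.38 and 49.23 CPM for CTCF and 20.28 and 9.554 CPM for RAD21 (log2 -1.81, adjusted p = 0.0012). RPS27L, a ribosomal protein-like gene, lay above with 23.40 and 28.66 CPM against 8.315 and 6.154 CPM (log2 1.78, adjusted p = 0.0065), and its call was lost without CTCF replicate 1 or 2 (adjusted p = 0.053 and 0.12).

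Several short motifs of promoter factors were commoner where RAD21 was above. The GC box GGGGCGGGG, bound by SP-family factors, was in 12.1% of all 73975 intervals and in 19.48% of those tested, and in 31.49% of those with RAD21 above and 11.72% of those below. Of the tested intervals that held it, 87.87% were promoters. Motifs of CRE (TGACGTCA), ETS (CCGGAAGT) and NRF1 (GCGCATGCG) were in 1.82%, 3.73% and 1.78% of the tested intervals (1.17%, 2.28% and 1.05% of all), and intervals holding them had log2 medians of 0.59, 0.58 and 0.64. Of these intervals 85.46%, 90.25% and 93.18% were promoters, and all 3 classes had median widths of 1105 to 1266 bases against 593 over all tested. Medians were 0.54 with YY1 letters (AAGATGGCG), 0.51 with ZNF143 (ACTACAATT), 0.48 with the TFIIIC B box (GTTCGANTC) and 0.31 with the E-box (CACGTG). Intervals holding the letters of GATA factors (AGATAAG) had a median of 0.01. Letters were searched on both strands, and overlaps between motifs were not removed. Outside promoters and without the consensus, intervals with an AP-1 motif (TGANTCA) had a median of 0.24 (n = 1844) against 0.01 without it, and TEAD letters (GGAATG) gave -0.11 (n = 3121) against 0.08. In the same intervals YY1 letters gave -0.33 (n = 54) against 0.04, ZNF143 -0.14 (n = 32) against 0.04 and the E-box -0.01 (n = 1028) against 0.04, the other direction from their medians over all tested intervals. Of the tested intervals with YY1 letters 89.27% were promoters, with ZNF143 letters 70.69% and with the E-box 67.5%. The GC box gave 0.49 (n = 631) against 0.01, CRE 0.50 (n = 65), NRF1 0.37 (n = 39), ETS 0.18 (n = 76), the B box 0.39 (n = 73) and GATA letters 0.13 (n = 665), each against 0.03 to 0.04. A match describes the letters of an interval and not a bound factor.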

How the data were processed

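The deposited table holds whole-number counts per interval, which the authors deposited unscaled. The submitters' processing notes name Trim Galore, FastQC, BWA 0.7.17, SAMtools, Picard, bedtools 2.31.1 and MACS2 2.2.6 with builds hg38 and GRCh38, without roles. How the intervals were called, and whether libraries were pooled for it, is not given in the sources used here. The table covers 16 libraries in 8 groups, and the 2 RAD21 and 2 CTCF vehicle libraries were compared. Printed coordinates are 1-based; annotation was GENCODE release 44 (bedtools 2.31.1). Tests used edgeR 4.0.16 (R 4.3.3; TMM, filterByExpr with a minimum of 10 counts, robust quasi-likelihood fit); the step was tested on simulated data. CPM is per 1e6 of TMM-scaled library size. The SE was derived from the F statistic. H3K27ac and eGFP-YAP CPM are on summed counts of the compared intervals.

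Named intervals were the 12 highest and 12 lowest log2 values among called intervals above the median CPM whose libraries did not overlap between targets, the 8 with the highest smaller mean per kb (all at most 0.1% of a library, 1 per nearest gene), and for each list the largest called difference each way and the highest CTCF and RAD21 interval. Other intervals of the lists were named after their values were seen. One interval that the rule names is not reported here. The members and lists were chosen with earlier results of these data known. Alternatives were DESeq2 1.42.0, other scalings, filters, GC-corrected offsets (lowess, span 0.3), a replicate block, larger fits and each library left out.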

Additional observations from a re-analysis of the deposited data

Results flagged for a closer look

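A large part of the counts lay outside the intervals compared, in data no comparison used: 45.4% ± 5.48 of RAD21 counts and 22.7% ± 4.02 of CTCF counts (SD, n = 2). Most were mitochondrial, at 36.4% ± 2.96 for RAD21 and 17.8% ± 3.03 for CTCF. Mitochondrial counts were 37.3% ± 1.15 in the eGFP-YAP libraries and 2.05% ± 0.0354 in the H3K27ac libraries. Groups of 2 libraries were too small for a check of single libraries against their group.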

How the results depend on the processing

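The 3 class differences kept their direction under every alternative run, while the counts of calls moved. RAD21 was above at 3458 intervals in 1 fit of 16 libraries, 2350 with DESeq2, 2516 with a mean of at least 50 counts (2012 below), 3487 with no count filter (10857 below) and 1713 under scaling to the weakest 25% (13361 below). GC-corrected offsets with a mean of at least 50 counts, added after seeing the data, gave 2296 above and 1825 below. Leaving out 1 library gave 1132 to 5669 above and 3121 to 9762 below. With the replicate number as a block 4535 were above and 6124 below, and the class differences were 0.909, -1.332 and 1.468; with the block and GC-corrected offsets 3542 were above and the differences were 0.413, -1.079 and 0.875. The labels do not say that equal numbers mark a shared culture, and the correlation of replicate differences between targets was 0.032 (20204 intervals). In the order 16 libraries, 8 vehicle libraries, DESeq2, GC-corrected offsets, those with at least 50 counts, at least 50 counts alone and no filter, the promoter difference was 0.656, 0.677, 0.393, 0.404, 0.377, 0.675 and 0.406, the consensus difference -1.538, -1.498, -1.531, -1.081, -0.824, -0.996 and -1.521, and the H3K27ac difference 1.407, 1.411, 1.358, 0.864, 1.039, 1.539 and 1.364. With all chromosomes the last pair were -1.298 and 1.487, and without intervals above 0.1% of a library -1.38 and 1.433. Promoters within 500 bases gave 0.954, an exact consensus -1.303 and H3K27ac not divided by length 1.381. Leaving out 1 library gave 0.778 to 0.814, -1.511 to -1.293 and 1.425 to 1.532. The shared strongest intervals were 34.57% of 1000, 45.0% of 10000 and 46.65% by count per interval, and 35.49% to 43.5% without 1 library. Directions reversed at STAG1 (0.03) and RPL10 (0.63) with at least 50 counts, at H2AC25 (0.07) with GC-corrected offsets added, and near AKAP1 (-0.03) under scaling to the weakest 25%. Each of these settings moved the whole scale. Over intervals shared with the main fit the shift in log2 was 0.644 with at least 50 counts and 0.696 with GC-corrected offsets added. It was -0.601 under scaling to the weakest 25%. Other causes were not tested. The RAD21 depth of 0.602 M counts in replicate 2 limits intervals of low RAD21.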
